A study of Mus musculus with 40 samples.

Results

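The genes described here are the Toll-like receptors Tlr1 to Tlr9 and their adaptor Myd88, taken as each probe whose gene symbol in the deposited fold change table is one of these names. They are 10 of 29411 gene symbols and 11 of 40628 probes. Tlr3 has 2 probes and each other gene has 1. RNA came from subcutaneous stromal vascular cells of C57BL/6J mice, weaned at 3 to 4 weeks of age and then put on 1 of 5 diets. LFC mice ate a low-fat diet and HFC mice a high-fat, high-sucrose diet, with 11 arrays each at days 1, 6, 10 and 14 and at weeks 0, 3, 6, 9, 12, 15 and 18. HF5, HF20 and HF75 mice ate the HFC diet with 5, 20 or 75 µg of the botanical formulation Kal-1. HF5 has 6 arrays at weeks 3 to 18, and HF20 and HF75 have 5 arrays each at weeks 3 to 15. Each diet and time label thus has 1 array, and although the labels tell of 5 animals taken per group every 3 weeks, they do not say how many mice an array holds. Every p-value below therefore measures spread between arrays.

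Toll-like receptors are innate immune sensors that recognise conserved molecules of microbes, and Tlr4 has also been linked to responses to fatty acids in adipose tissue. Tlr1, Tlr2, Tlr4, Tlr5 and Tlr6 act at the cell surface, whereas Tlr3, Tlr7, Tlr8 and Tlr9 sense nucleic acids in endosomes. All of them except Tlr3 can signal through Myd88 to NF-kappaB and to inflammatory cytokine genes, and macrophages and B cells are well-known sites of their expression.

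Levels below are log2 intensities minus the 75th percentile of the array, so they compare 1 probe across arrays and not 1 probe with another. Over 36 of the 38 arrays this percentile was an intensity of 168 to 1866 (median 798), and 53.4 to 87.2% of probes were well above background. The LFC array of week 3 stands apart, with a 75th percentile of 8.02 and 17.2% of probes well above background, as does the LFC array of day 14, with 9104 outlier spots. The labels name infiltrating macrophages. The 12 genes of the macrophage list were each well above background on at least 50% of arrays, and the mean level of the list ran from -1.29 to 2.33 (median 0.70). The gene named for a list is the one whose probe has the highest mean level (C1qc here), which does not rank its transcripts. Other cell types were measured as well. The fibroblast list had a median of 4.11 (Dcn), the adipocyte list 1.64 (Cfd), the endothelial list 1.95 (Cldn5), the skeletal muscle list 1.03 (Myl1), the erythroid list 0.23 (Hbb-b1) and the mast cell list -2.01 (Cma1). The LFC array of week 18 had the lowest levels of the adipocyte (-5.93), fibroblast (-4.97), endothelial (-5.17) and skeletal muscle (-6.29) lists and the highest of the neutrophil and monocyte (3.86) and erythroid (5.47) lists. The arrays lie on 30 slides and were scanned on 15 days, and each scan day holds arrays of 1 time label only, so time point and the handling of a scan day cannot be told apart.

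Among the cell surface receptors, Tlr2, which pairs with Tlr1 or Tlr6 to sense bacterial lipoproteins, was well above background on 37 of 38 arrays, with levels from -2.17 through a median of 1.11 to 3.02. Its partner Tlr1, for triacylated lipopeptides, ran from -4.55 through -1.83 to 0.44 (37 arrays well above background), and its partner Tlr6, for diacylated lipopeptides, from -4.40 through -2.20 to -0.55 (36 arrays). Tlr4, the receptor for bacterial lipopolysaccharide, stayed between -2.71 and 0.05 (median -1.28, 37 arrays). Tlr5, the flagellin receptor, ran from -7.40 through -4.65 to -1.10 and was well above background on 30 arrays. Its highest value is on the dim LFC array of week 3, and over the 36 arrays that do not stand apart the highest was -1.93. The highest Tlr1 level is on HF5 of week 3 and the lowest on LFC of week 12, whereas Tlr2 is highest on HFC of week 6 and lowest on HFC of day 1.

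Of the endosomal receptors, Tlr9, which senses unmethylated CpG DNA, was well above background on 38 of 38 arrays, at -1.06 to 2.01 (median 0.30). Tlr7, a receptor for single-stranded RNA, ran from -4.60 through -1.50 to 0.24 (37 arrays). Tlr3, the receptor for double-stranded RNA, ran from -7.15 through -4.25 to -1.21 on its main probe (33 of 37 arrays with a value) and from -7.38 through -4.68 to 0.23 on its second probe (29 arrays). Both highest values are on the dim LFC array of week 3, and over the 36 arrays the highest were -3.08 and -3.48. Tlr8 was near background: its probe passed on 3 of 38 arrays, HFC of week 0, HF5 of week 15 and LFC of week 18, and it was tested in no comparison. Myd88 was well above background on 37 arrays and ran from -1.22 through 2.10 to 3.38, with the lowest value on the dim LFC array of week 3.

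The first question is whether the members differ between weeks 3, 6, 9, 12 and 15, the time points that all 5 diets share. With diet as a block, 4 of the 9 members tested passed a limma F test at an adjusted p under 0.05, beside 17.7% of the 31569 probes tested (5574 probes). Tlr1 had week means of 0.13, -2.60, -2.44, -2.36 and -2.24, a range of 2.74 (adjusted p = 0.0495), so week 3 stands alone at the top. Tlr6 had means of -1.16, -2.68, -2.62, -2.45 and -1.91, a range of 1.52 (adjusted p = 0.0386), again with week 3 highest. Tlr2 had means of 1.06, 1.80, -0.35, 0.23 and 1.22, a range of 2.15 (adjusted p = 0.0437), with week 9 lowest. Tlr4 had means of -1.62, -1.77, -0.64, -0.62 and -0.28 (adjusted p = 0.0368), lower at weeks 3 and 6 than at weeks 9 to 15. The median range of the 9 members was 1.19, and that of all probes tested was 1.33.

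The adjusted p of these 4 calls lies near the threshold. With scan day as a random block, a fit chosen after seeing the data, 0 members and 604 probes passed in limma (3 members and 5787 probes at an unadjusted p under 0.05). The ranges changed little, to 2.86 for Tlr1, 2.04 for Tlr2, 1.44 for Tlr4 and 1.47 for Tlr6. The adjusted p of Tlr1 was then 0.230, and over the alternatives it ran from 0.0107 to 0.230. Tlr4 also missed the threshold under quantile normalization, where its range was 2.61 (adjusted p = 0.0891, over the alternatives 0.0103 to 0.247). With no filter on dim probes all 4 members missed it, at an adjusted p of 0.0586 to 0.0724. With dim values raised Tlr1 (0.0618), Tlr4 (0.0912) and Tlr6 (0.0524) missed it, and with no block Tlr2 (0.0775) and Tlr6 (0.0606). Leaving out 1 array at a time, Tlr1 was called in 6 of 25 fits with ranges of 2.38 to 3.26, Tlr2 in 13 with 1.82 to 2.44, Tlr4 in 9 with 1.34 to 1.71 and Tlr6 in 10 with 1.15 to 1.73. The calls of Tlr1, Tlr4 and Tlr6 were thus lost in most fits, and that of Tlr2 was held in only 13 of 25, while the ranges stayed of similar size. The count of members was 0 without any one of HF5 of week 3, LFC or HF20 of week 6, LFC, HF5 or HFC of week 9, or HF75 of week 15. It was 1 without HFC of week 3, HF5 of week 6 or LFC of week 15 (Tlr2), or HF20 of week 12 or HF5 of week 15 (Tlr6). It was 2 without LFC of week 3, HF75 of week 6, HF20 of week 9 or HFC of week 12 (Tlr2 and Tlr4), HF20 of week 3 or week 15 (Tlr2 and Tlr6), HFC of week 6 or HF75 of week 12 (Tlr1 and Tlr6), or HFC of week 15 (Tlr1 and Tlr4). Without HF75 of week 3 it was 3, with Tlr1 lost, and without HF75 of week 9, LFC of week 12 or HF5 of week 12 it was 4. The count of probes moved by over 1.5 times without LFC (3309), HF20 (3553) or HF5 (3117) of week 6, LFC (3677), HF5 (3473) or HFC (3416) of week 9. Without the others it was 3915 to 7855.

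The levels by time show where these differences lie, with Tlr1 and Tlr6 high on the arrays of week 3 and Tlr2 low on most arrays of week 9.

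**Figure D1:**
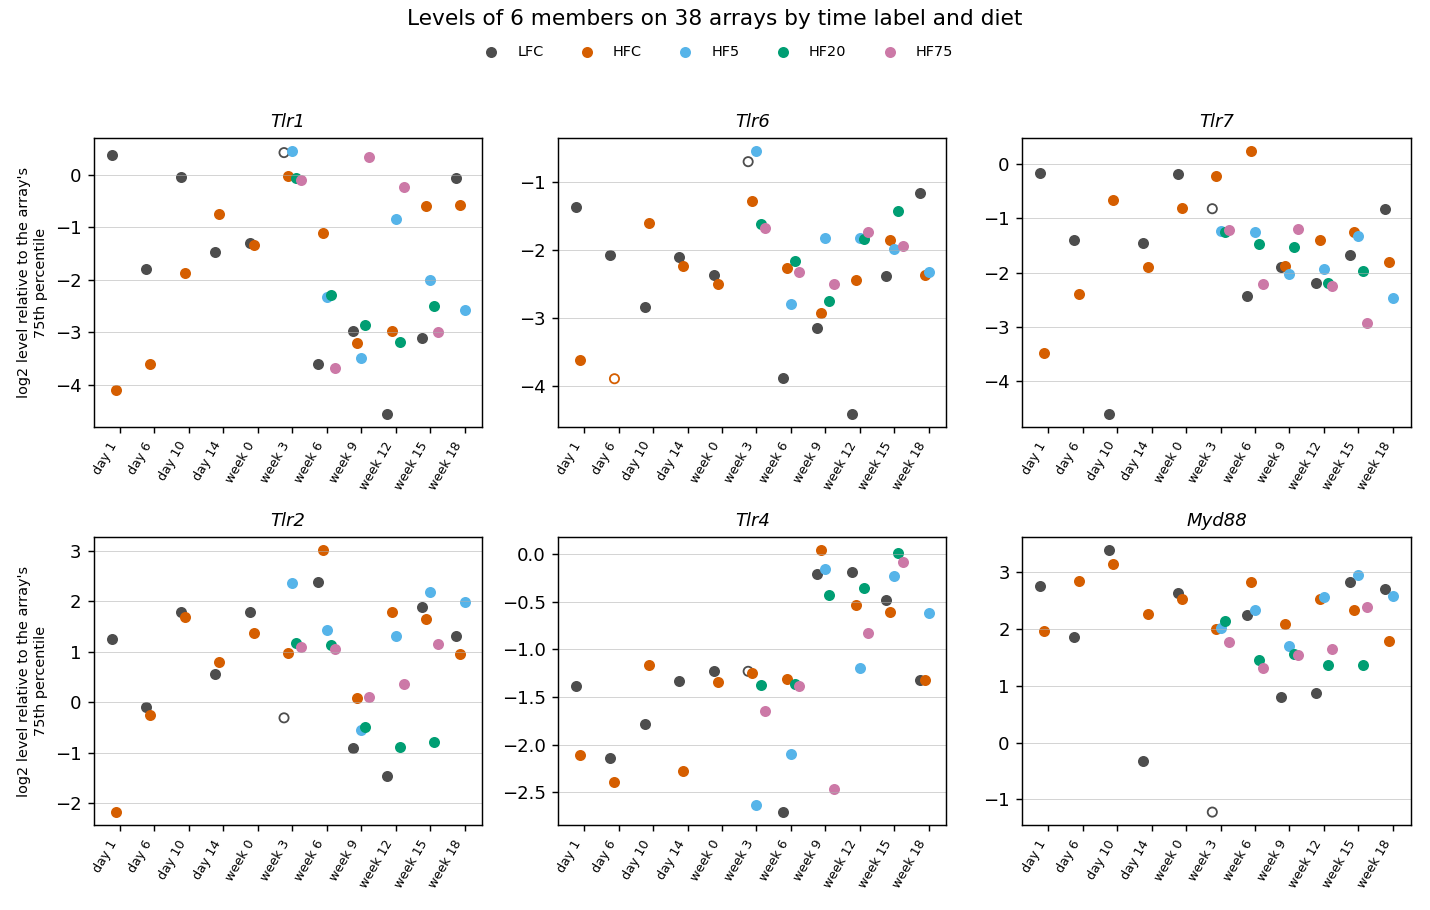
Levels of Tlr1, Tlr6, Tlr7, Tlr2, Tlr4 and Myd88 on each array by time label and diet, as log2 intensity minus the 75th percentile of the array. Open symbols are values not well above background.

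At week 3, set against the mean of weeks 6, 9, 12 and 15 with diet as a block, 3 of 9 members rose and 0 fell, beside 26.4% of the 29103 probes tested (18.9% higher, 7.55% lower). The share of members called is thus near that of all probes. The median difference of the 9 members was 0.11, against 0.24 for all probes. Tlr1 stood at 0.42 on the LFC array (not well above background), -0.03 on HFC, 0.44 on HF5, -0.06 on HF20 and -0.10 on HF75. On the other 20 arrays it ran from -4.55 through a median of -2.92 to 0.34. The 4 measured week 3 arrays lie near the top of the range, and the groups overlap only through HF75 of week 9, at 0.34. The difference was 2.54 (SE 0.59, 95% interval 1.31 to 3.78, adjusted p = 0.00779), and it was positive in each of the 4 diets with a measured week 3 value, from 1.55 in HF75 to 2.65 in HF20. The LFC values not well above background are upper limits, though the fit takes them as measured. Without that array the difference was 2.19.

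Tlr6 stood at week 3 at -0.70 on LFC (not well above background), -1.27 on HFC, -0.55 on HF5, -1.62 on HF20 and -1.67 on HF75, and on the other 20 arrays at -4.40 to -1.43 (median -2.29). HF20 and HF75 of week 3 lie inside the range of the other arrays, and HFC and HF5 lie above it. The difference was 1.26 (SE 0.31, 95% interval 0.61 to 1.91, adjusted p = 0.0103), positive in the same 4 diets, and 0.88 without the LFC array. Tlr7 stood at -0.82 on LFC (not well above background), -0.21 on HFC, -1.24 on HF5, -1.25 on HF20 and -1.21 on HF75, against -2.93 to 0.24 (median -1.89) on the other arrays, and the groups overlap. Its difference was 0.79 (SE 0.28, 95% interval 0.20 to 1.38, adjusted p = 0.0446), positive in the same 4 diets. Tlr1 and Tlr6 passed in each of the 5 fits that left out 1 week 3 array. Tlr7 passed in 0 of them: its difference was 0.69 without LFC, 0.78 without HFC, 0.89 without HF5, 0.85 without HF20 and 0.76 without HF75.

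With scan day as a random block, 1 member passed at week 3, beside 1350 of the probes. Tlr1 kept its call with a difference of 2.51 (adjusted p = 0.0479, over the alternatives 0.00146 to 0.0479). Tlr6 missed it at 1.21 (adjusted p = 0.0609, over the alternatives 0.00146 to 0.0609), as did Tlr7 at 0.78 (adjusted p = 0.145, over the alternatives 0.00323 to 0.145). The week 3 arrays also moved as a whole: the median of all probes was 0.24 higher, and relative to that median Tlr1 was 2.30 higher, Tlr6 1.01 and Tlr7 0.55. Under quantile normalization the median was -0.24, and 43.9% of called probes were higher (3260 higher, 4164 lower), against 71.4% in the values above (5489 higher, 2197 lower). Relative to that median the differences were 2.65 for Tlr1, 1.41 for Tlr6 and 0.96 for Tlr7, and Tlr7 lost its call there (adjusted p = 0.0526), as it did with no filter on dim probes (0.0637) and with no block (0.0723). Without the LFC array the median was -0.03, 4346 probes were called (53.5% higher), and the differences relative to the median were 2.21, 0.91 and 0.71. Without HF5 of week 3, 4464 probes were called.

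Of the other members, Tlr4 was lower at week 3 in each of the 4 diets with a measured value: -1.23 on LFC (not well above background), -1.24 on HFC, -2.63 on HF5, -1.37 on HF20 and -1.65 on HF75, against -2.71 to 0.05 (median -0.51) on the other 20 arrays. The ranges overlap, and the difference of -0.80 (SE 0.32, 95% interval -1.47 to -0.12) did not pass (adjusted p = 0.0722). Relative to the median of all probes it was -1.04. Under quantile normalization it was -2.05 and passed (adjusted p = 0.0300, over the alternatives 0.0300 to 0.612). The remaining 5 tested members did not pass: Tlr2 at 0.34, Tlr9 at 0.11, Tlr3 at -0.15, Tlr5 at -0.41 and Myd88 at -0.59. These values were 0.62, -0.050, -0.93, -1.18 and -0.017 without the LFC array, so the Myd88 difference rests on that array. Tlr3 turned to 0.57 without HF5 of week 3, and Tlr5 to 0.11 without HF20. Tlr3 passed in opposite directions under quantile normalization, at -1.67, and under normexp correction, at 1.51, and Tlr5 passed under normexp at 1.35.

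Lymphoid markers move with the week 3 difference. Of the B cell genes 4 of the 4 that passed the filter on dim probes on both sides rose, with mean list levels over all 5 genes at week 3 of 1.44 on LFC (2 of 5 genes well above background), 1.36 on HFC, 1.09 on HF5, 0.93 on HF20 and 0.66 on HF75, and -5.43 to 0.91 (median -3.57) on the other 20 arrays (Cd79b). The T cell list rose in 6 of 6 genes (Cd3d), with -0.20, 0.00, 1.42, -0.26 and 0.30 on the same arrays and -4.64 to 1.00 (median -2.57) elsewhere. The fifth B cell gene, Pax5, passed the filter through the week 3 arrays only, where it is high, and is not counted among the genes that rose. It remains in the mean levels of the B cell list, here and in the correlations with that list. HF75 of week 9, where Tlr1 is high, has the highest B cell and T cell list levels outside week 3. The neutrophil and monocyte list rose in 4 of 9 genes (S100a9; 1.59, 0.06, 0.19, -0.56 and -0.58 against -2.91 to 0.37), the dendritic cell list in 5 of 8 (Ccr7; -0.61 on LFC with 0 of 8 genes well above background, -2.27, -2.57, -2.54 and -2.76 against -4.64 to -2.50), and the lymph node list in 3 of 5 (Ccl19; 1.35, 0.40, -0.60, 0.39 and 0.13 against -4.26 to 0.38). The macrophage list fell in 6 of 12 genes (C1qc; -0.43 on LFC with 1 of 12 genes well above background, 0.74, -0.08, 0.33 and 0.30 against 0.14 to 2.33), and the fibroblast list in 3 of 8 (Dcn; 3.00, 4.67, 2.37, 4.09 and 3.49 against 3.77 to 4.86). Without the LFC array of week 3 the calls were 4 of 4 for the B cell, 4 of 6 for the T cell, 1 of 9 for the neutrophil and monocyte, 2 of 8 for the dendritic cell, 2 of 5 for the lymph node, 4 of 12 for the macrophage and 2 of 8 for the fibroblast list. With scan day as a random block they were 3 of 4, 0 of 6, 1 of 9, 1 of 8, 2 of 5, 2 of 12 and 2 of 8 in this order. The part of these cells in the week 3 levels of Tlr1, Tlr6 and Tlr7 was not tested, and in bulk RNA fewer cells of a type and less RNA per cell cannot be told apart.

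Tlr1 and Tlr6 are neighbours on the mouse genome, with 0 coding genes between them in GRCm38.p6. RefSeq promoters matched 8 of the 10 members, with no entry for Tlr4 and Tlr7. The promoters of Tlr1 and Tlr6 are shown because these genes rose together at week 3, each at the first of its 2 listed starts, on the minus strand of build GRCm38.p6 (chr5:64933509-64933808 and chr5:64959117-64959416). Both strands were searched for the PU box GAGGAA, held by 28.3% of all 32851 promoters of this length (9289), and for the AP-1 site TGACTCA, held by 5.202% (1709). Capitals mark a PU box: Tlr1 holds 1 and Tlr6 holds 0, and neither holds an AP-1 site. At the second listed start of each gene both motifs are absent.
Tlr1: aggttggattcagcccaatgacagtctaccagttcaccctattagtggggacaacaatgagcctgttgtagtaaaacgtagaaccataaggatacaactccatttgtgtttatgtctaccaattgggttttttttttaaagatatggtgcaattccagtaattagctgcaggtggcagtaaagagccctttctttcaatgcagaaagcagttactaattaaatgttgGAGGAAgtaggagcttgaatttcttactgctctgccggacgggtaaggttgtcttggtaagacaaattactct
Tlr6: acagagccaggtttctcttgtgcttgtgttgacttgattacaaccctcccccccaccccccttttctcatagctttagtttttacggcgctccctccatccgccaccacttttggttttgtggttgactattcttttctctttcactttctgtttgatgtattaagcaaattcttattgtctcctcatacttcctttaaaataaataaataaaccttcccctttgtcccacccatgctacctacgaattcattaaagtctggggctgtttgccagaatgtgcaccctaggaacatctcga

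Genes that act with the receptors were examined at week 3 on the same arrays, where 26.4% of all probes tested were called, and the shares called in the lists lie on both sides of that value. Of 12 accessory proteins 2 rose and 2 fell: Ly86, the partner of Cd180, by 1.87 (SE 0.40, adjusted p = 0.0055), and Cd180 itself, a receptor-like protein of B cells, by 2.17 (SE 0.68, adjusted p = 0.0278). The fatty acid and lipoprotein receptor Cd36 was lower, at -2.11 (SE 0.62, adjusted p = 0.0213), as was the lipopolysaccharide binding protein Lbp, at -1.93 (SE 0.49, adjusted p = 0.0112). Of 19 adaptors and proximal kinases 4 rose, among them the B cell adaptor Pik3ap1 by 1.95 (SE 0.42, adjusted p = 0.00553) and the kinases Ikbke by 1.47 and Ikbkb by 0.95. Of 10 transcription factors 3 rose: the NF-kappaB subunit Rel by 2.70 (SE 0.61, adjusted p = 0.00681), Irf8 by 1.57 and Irf7 by 1.12. Of 13 negative regulators 3 rose, Nfkbie by 1.90, Nfkbia by 1.51 and Sigirr by 1.12, and of 18 target genes 3 rose, among them Il12a by 3.72 and Ccl5 by 2.42. Another target gene, Il12b, passed the filter on dim probes through the week 3 arrays only, where it is high, and is not counted. Medians of the first 4 lists were 0.01, 0.44, 0.65 and 0.71 in this order, against 0.24 for all probes. Without the LFC array of week 3 the calls were 2 of 12 (Lbp and Ly86), 1 of 19 (Pik3ap1), 3 of 10, 1 of 13 (Nfkbie) and 1 of 18 (Il12a). With scan day as a random block they were Ly86, Pik3ap1, Rel and Il12a, with 0 of 13 negative regulators.

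Over all of weeks 3 to 15, where 17.7% of all probes tested were called, the F test called 5 of 12 accessory proteins, among them the receptor Tlr12 with a range of 4.13, Lbp with 3.37 and the lipopolysaccharide co-receptor Cd14 with 3.14. It called 1 of 19 adaptors (Pik3ap1, 2.32), 1 of 10 transcription factors (Rel, 3.91) and 4 of 13 negative regulators (Socs3 with 4.21, Nfkbie with 2.57 and Nfkbia with 2.46). Of the 14 target genes that passed the filter on dim probes at every week it called 5, among them the prostaglandin synthase Ptgs2 with a range of 6.21 and Ccl4 with 5.75. Without the LFC array of week 3 the counts were 4 of 12, 0 of 19, 1 of 10, 3 of 13 and 5 of 14, and Pik3ap1 and Nfkbie were no longer called. With scan day as a random block 0 genes of these pathway lists were called by limma. Of the marker genes that passed the filter at every week, the F test called 9 of 9 adipocyte, 3 of 3 B cell, 1 of 2 lymph node, 2 of 4 epithelial, 6 of 12 macrophage, 4 of 10 immediate-early, 2 of 8 neutrophil and monocyte, 2 of 8 fibroblast, 1 of 6 dendritic cell and 0 of 5 T cell genes. In the fit without the LFC array of week 3 these counts were 9, 1, 2, 4, 5, 4, 2, 1, 0 and 0 in the same order, and with scan day as a random block only Pdgfra and Krt18 were called. The part of these cells in the ranges of Tlr1, Tlr2, Tlr4 and Tlr6 was not tested.

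Week 9 against the mean of weeks 3, 6, 12 and 15 asks the same of the time point where Tlr2 is lowest. In limma 0 of 9 members passed (1 at an unadjusted p under 0.05), beside 1.31% of the 29610 probes tested (0.601% higher, 0.706% lower, 6137 at an unadjusted p under 0.05). Tlr2 stood at -0.90 on LFC, 0.08 on HFC, -0.54 on HF5, -0.49 on HF20 and 0.11 on HF75, and at -1.45 to 3.02 (median 1.16) on the other 20 arrays. It was lower in 5 of 5 diets, by differences of -2.37 to -0.65, with overlapping ranges. The mean difference was -1.43 (SE 0.43, 95% interval -2.32 to -0.53, adjusted p = 0.0821). Without the LFC array of week 3 it passed (adjusted p = 0.0461, over the alternatives 0.0461 to 0.471). Tlr6 and Myd88 were also lower in 5 of 5 diets, at -0.57 (adjusted p = 0.304) and -0.35, and did not pass.

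Adipocyte markers move with week 9. The adipocyte list rose in 7 of 9 genes (Cfd), with levels of 5.00 on LFC, 4.75 on HFC, 4.94 on HF5, 5.01 on HF20 and 2.55 on HF75, against -1.09 to 5.46 (median 0.55) on the other 20 arrays. With scan day as a random block 0 genes of this or any other list were called at week 9. The immediate-early and digestion response list fell in 2 of 10 genes (Junb; -0.39, 2.89, 0.23, 0.06 and 4.09 against -1.03 to 5.29, median 4.86), and the epithelial list in 1 of the 4 genes that passed the filter on dim probes on both sides (Krt18). The titles of the other 4 week 9 arrays carry the letters WS, which the HF75 array and all other arrays lack and whose meaning the labels do not give, and HF75 was scanned on another day. Of the week 9 arrays, HF75 has the lowest adipocyte list level and the highest immediate-early list level. Of the negative regulators 1 of 13 fell, the cytokine signalling inhibitor Socs3, by -3.39 (SE 0.82, adjusted p = 0.0488). Without the LFC array of week 3, the fit in which Tlr2 passed, 5 of the 15 target genes that passed the filter on both sides (Il6, Ptgs2, Tnf, Il10 and Ccl4), Cd14 and Nfkbia were called lower too, and the marker counts were 8 of 9 for the adipocyte, 4 of 10 for the immediate-early and 2 of 4 for the epithelial list. The part of these cells in the Tlr2 level was not tested. The count of called probes was 1790 without HF75 of week 9, 1 without HF20, and 0 without LFC, HFC or HF5 and with scan day as a random block.

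In the LFC and HFC diets, 12 late arrays (weeks 3 to 18) were compared with 10 early arrays (days 1 to 14 and week 0). In limma 0 of 9 members passed (1 at an unadjusted p under 0.05), beside 0.0033% of the 30263 probes tested (1 probe, 1654 at an unadjusted p under 0.05). Tlr4 ran from -2.39 through -1.58 to -1.16 on the early arrays and from -2.71 through -0.92 to 0.05 on the late ones. The ranges overlap, with the highest values on late arrays. Its difference was 0.79 (SE 0.31, p = 0.0195 in limma, adjusted p = 0.883). The called probe, chosen after its values were seen, is that of Igh, an immunoglobulin heavy chain gene, at a mean of 5.53 late and 1.84 early (difference 3.69, SE 0.58, adjusted p = 0.0497). The count was 0 in 15 of the 22 fits that left out 1 array, 1 in 6 of them and 4 without LFC of week 3.

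The diet comparisons pair arrays of the same time label, and the HF5, HF20 and HF75 comparisons share HFC arrays. HFC against LFC asks what the high-fat, high-sucrose diet does. In limma 0 of 9 members passed (0 at an unadjusted p under 0.05), beside 0% of the 29267 probes tested (865 at an unadjusted p under 0.05). Myd88 ran from 1.79 through 2.33 to 3.14 on the 11 HFC arrays and from -1.22 through 2.24 to 3.38 on the 11 LFC arrays, so the groups overlap and the lowest values are LFC. Its difference was 0.70 (SE 0.41, adjusted p = 0.969), positive at 6 of 11 time labels, from -0.92 at week 18 to 3.21 at week 3, where the LFC array is dim. On the 4 shared slides it was 1.34 and over the 10 pairs scanned on 1 day 0.85, and both sets hold this pair. In HFC minus LFC without week 3 Myd88 differed by 0.45, and without both arrays that stand apart by 0.22. Tlr5 differed by -0.71 (SE 0.51), by -0.45 without week 3, where its LFC value is not well above background, and by -0.14 without both arrays. The others differed by -0.18 (Tlr1) to 0.19 (Tlr7), but these small values move: leaving out 1 pair, Tlr1 ran from -0.45 to 0.24, Tlr2 from -0.16 to 0.51 and Tlr7 from -0.19 to 0.54, and Tlr4 was 0.70 under quantile normalization. For Tlr3 the fit lacks day 14, where the LFC array has no value. The median of all probes was -0.00 in this fit and 0.18 under quantile normalization.

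The HF5 diet against HFC gave 0 of 9 members in limma (1 at an unadjusted p under 0.05), beside 0% of the 29200 probes tested (1467 at an unadjusted p under 0.05). Tlr7 was at -1.24 on HF5 and -0.21 on HFC at week 3, -1.24 and 0.24 at week 6, -2.03 and -1.88 at week 9, -1.93 and -1.40 at week 12, -1.33 and -1.26 at week 15 and -2.47 and -1.81 at week 18. It was lower in 6 of 6 pairs although the ranges overlap, by -0.65 (SE 0.23, 95% interval -1.19 to -0.12, p = 0.0228 in limma), and missed the threshold (adjusted p = 0.931). On the 3 shared slides the mean difference was -0.42, and all 6 pairs were scanned on 1 day each. The macrophage list had a median difference of -0.45 there, with 0 of 12 genes called by limma and 5 at an unadjusted p under 0.05, and its part in the Tlr7 level was not tested.

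The HF20 diet against HFC gave 0 of 9 members in limma (3 at an unadjusted p under 0.05), beside 0% of the 30832 probes tested (3720 at an unadjusted p under 0.05). Tlr2 on HF20 was 1.18 at week 3, 1.13 at week 6, -0.49 at week 9, -0.88 at week 12 and -0.78 at week 15, and on HFC 0.98, 3.02, 0.08, 1.78 and 1.65. It was lower in 4 of 5 pairs, all but week 3, with a difference of -1.47 (SE 0.48, p = 0.0201 in limma, adjusted p = 0.407). Myd88 on HF20 was 2.13, 1.45, 1.55, 1.36 and 1.37 in the same order, and on HFC 1.99, 2.82, 2.08, 2.52 and 2.33. It too was lower in 4 of 5 pairs, at -0.77 (SE 0.28, p = 0.0317 in limma), and Tlr7 differed by -0.78 (SE 0.32, p = 0.0494 in limma), both with an adjusted p of 0.407. In the 4 pairs scanned on 1 day the differences were -1.89 for Tlr2, -1.003 for Myd88 and -0.72 for Tlr7. Marker lists are set beside these members, with 0 genes called by limma. The immediate-early and digestion response list (Junb) had a median difference of -2.68, with 8 of 10 genes at an unadjusted p under 0.05, and levels of 4.85, 4.15, 0.065, -1.03 and 1.77 on HF20 against 4.59, 5.16, 2.89, 5.15 and 4.87 on HFC. The adipocyte list (Cfd) had a median of 2.03, with 4 of 9 genes at an unadjusted p under 0.05, and levels of 1.25, -0.24, 5.01, 5.46 and 5.08 against 0.93, -1.09, 4.75, 1.67 and -0.045. Of the pathway lists, the target genes had a median difference of -2.67, with 7 of 19 genes at an unadjusted p under 0.05. The negative regulators had -0.84 (6 of 13) and the transcription factors -0.86 (4 of 10). The accessory proteins had -0.45 (2 of 12) and the adaptors and kinases 0.07 (1 of 19), against 0.08 for all probes. These counts may hold genes that passed the filter on dim probes through 1 diet only. The HF20 arrays with low Tlr2, weeks 9, 12 and 15, are those with high adipocyte and low immediate-early levels, and the part of all these lists was not tested.

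The HF75 diet, the highest dose, against HFC gave 0 of 9 members in limma (1 at an unadjusted p under 0.05), beside 1.01% of the 28913 probes tested (236 higher, 56 lower, 4216 at an unadjusted p under 0.05). Tlr5 was at -7.05 at week 3, -7.40 at week 6, -5.83 at week 9, -5.95 at week 12 and -6.84 at week 15 on HF75, and -4.42, -2.90, -3.10, -5.10 and -4.33 on HFC. The groups do not overlap, and Tlr5 was well above background on 0 of 5 HF75 arrays and 5 of 5 HFC arrays. The HF75 arrays were also dimmer, with a median ratio of signal to background of 3.50 to 4.05 against 4.12 to 7.23 on these HFC arrays. Their 75th percentile was an intensity of 469 to 781 against 756 to 1719. The part of this dimness in the Tlr5 values was not tested. Its probe passed the filter through HFC only and was lower on HF75 in 5 of 5 pairs, with values at background on HF75, so no exact size or test is given, and the 1 member at an unadjusted p under 0.05 is this one. With the background correction of the deposited intensities, HF75 values below the lowest level marked well above background on their array were raised to it. This gives a fold of 5.26, which is no lower limit, because values above that level can also be at background. Over the 2 pairs scanned on 1 day (weeks 12 and 15) the same step gives 3.20, equal to the measured values. Those values are at background on HF75 although the step does not raise their mean. The fold of 5.26 does not hold under normexp correction, where the estimate was -0.97, or -0.25 without spots of bright local background. The median of all probes was -0.02, and Tlr2 at -0.75 (SE 0.37), Myd88 at -0.62 (SE 0.29) and Tlr7 at -1.05 (SE 0.45) did not pass. The count of called probes was 1 without week 3, 0 without week 6, 182 without week 9, 94 without week 12 and 34 without week 15.

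At the lower doses Tlr5 was well above background on each array of weeks 3 to 15, at -5.89 to -3.23 on HF5 and -5.90 to -2.88 on HF20. The lowest values of both overlap the upper end of the HF75 values, and HF5 and HF20 were not tested against HF75.

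**Figure D2:**
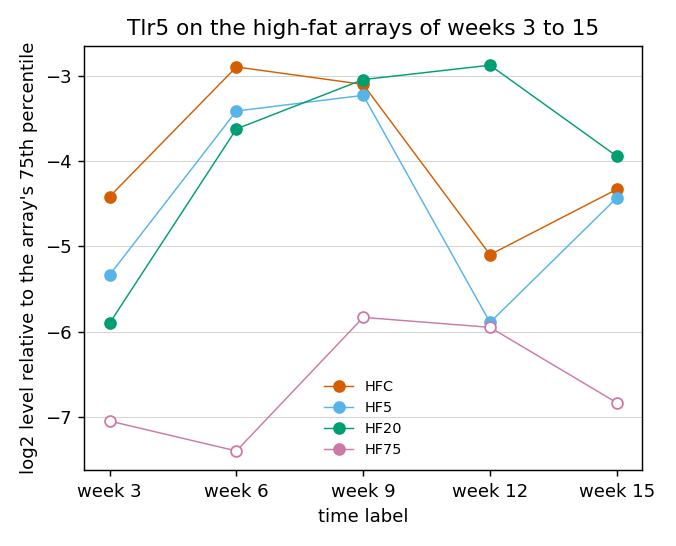
Tlr5 level on the HFC, HF5, HF20 and HF75 arrays at weeks 3 to 15, as log2 intensity minus the 75th percentile of the array. Open symbols are values not well above background.

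Marker lists are set beside these levels, although no member passed on HF75. The macrophage list (C1qc) had a median difference of -1.16, with 0 of 12 genes called by limma and 8 at an unadjusted p under 0.05, and its mean level at weeks 3 to 15 was 0.30, 0.58, 0.14, 0.14 and 0.60 on HF75 and 0.74, 2.33, 1.39, 0.92 and 1.21 on HFC. The fibroblast list (Dcn) had a median of -0.87, with 1 of 8 genes called lower and 6 at an unadjusted p under 0.05, where 14.6% of all probes were. Their part in the levels of Tlr5, Tlr7, Tlr2 and Myd88 was not tested. No other marker list had a called gene in the HF75 comparison. The epithelial list had a median difference of 1.54 there, with 3 of 6 genes at an unadjusted p under 0.05. That of the mast cell list was -1.21, with 2 of 6, and the part of these 2 lists was not tested either. None of the pathway lists had one in any diet comparison or between late and early arrays. The mast cell, endothelial, skeletal muscle and erythroid lists had 0 called genes in limma in every comparison, although the F test without the LFC array of week 3 called Mcpt4 of the mast cell list.

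The member levels were also set against the mean levels of the macrophage, neutrophil and monocyte, B cell and adipocyte lists over the 36 arrays that do not stand apart. Arrays fell into separate ranges of a list, so each correlation is given within a range, split at gaps over 1 log2 unit into ranges of at least 6 arrays, a rule chosen after seeing the values. Of 60 such relations 7 passed, by two-sided permutation tests adjusted over the 60. With 100000 permutations, 1e-05 is the smallest p they can give. The permutations treat arrays as exchangeable, although arrays share time labels and scan days, so these p-values take no account of what such arrays have in common. Tlr1 rose with the neutrophil and monocyte list over 35 arrays with list levels of -2.91 to 0.47 (r = 0.781, p = 1e-05, rho = 0.768, p = 1e-05, and r = 0.763 without the 2 arrays farthest from the median). Tlr1 also rose with the B cell list over the 17 arrays at -1.97 to 1.36 (r = 0.906, p = 1e-05, rho = 0.858, p = 5e-05, and r = 0.831 without 2 arrays), while over the 19 arrays at -5.43 to -3.04 the relation did not pass (r = 0.551, p = 0.0135, adjusted p = 0.0808). Tlr6 did so with both lists, at r = 0.548 (p = 0.0007, rho = 0.377, p = 0.0261) and, among the 17 arrays, r = 0.658 (p = 0.00415, rho = 0.696, p = 0.0024). Tlr2 rose with the neutrophil and monocyte list (r = 0.549, p = 0.00051, rho = 0.480, p = 0.00378). With the macrophage list, Tlr7 passed over 35 arrays at -0.08 to 2.33 (r = 0.483, p = 0.00334, rho = 0.439, p = 0.00882, and r = 0.377 without 2 arrays). Tlr4 did not pass there (r = 0.374, p = 0.0262, rho = 0.435, p = 0.00965), and Tlr7 was not tested against it.

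Tlr2 fell with the adipocyte list over the 25 arrays at -1.09 to 2.92 (r = -0.618, p = 0.0011, rho = -0.534, p = 0.00666, and r = -0.464 without 2 arrays). The 10 arrays at 4.32 to 5.83 hold Tlr2 levels of -2.17 to 0.08, below the 0.11 to 3.02 of the 25, and within them the relation did not pass (r = 0.610, p = 0.0622, and r = -0.03 without 2 arrays). By rank correlation the adjusted p of Tlr1 with both lists and of Tlr6 with the B cell list was under 0.05, and that of Tlr2 and Tlr6 with the neutrophil and monocyte list, of Tlr2 with the adipocyte list and of Tlr7 with the macrophage list was 0.0567, 0.112, 0.0666 and 0.0724.

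**Figure D3:**
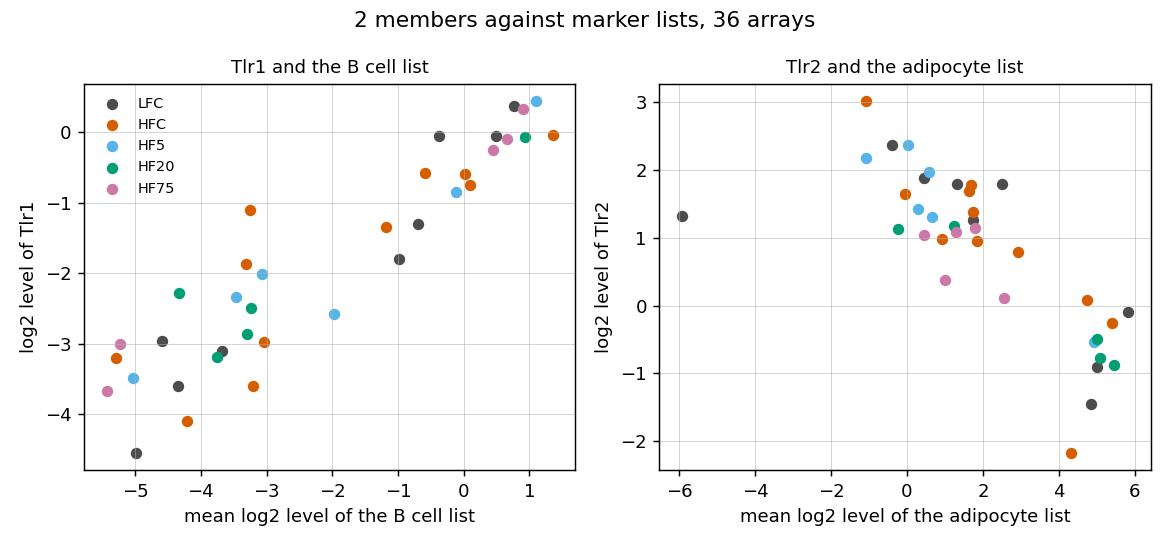
Tlr1 against the mean level of the B cell list and Tlr2 against that of the adipocyte list on 36 arrays, as log2 intensity minus the 75th percentile of the array. Gaps in the list levels separate the ranges within which correlations are given.

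The genes whose levels were most like each member over the 36 arrays, among 19108 genes searched, are given as a description. For Tlr1 they were Slamf6 (r = 0.966), A430107D22Rik (0.963) and Coro1a (0.957). For Tlr2 they were the cytokine gene Tnf (0.917), Cd14 (0.912) and the chemokine gene Ccl3 (0.900), and for Tlr4 Trappc2 (0.774), Zeb2 (0.770) and Klhl5 (0.765). Tlr5 was closest to LOC100048293 (0.823), Oprs1 (0.812) and Ptges (0.790), and Tlr6 was close to Gcnt1 (0.734) and Pira11 (0.723). Among the endosomal receptors, Tlr3 was close to Tjp1 (0.889) and Map4k3 (0.876). Tlr7 was closest to LOC100044574 (0.686), Tyrobp (0.674) and 9130227C08Rik (0.661), and Tlr9 to Sprr2k (0.863), Gm2138 (0.853) and LOC100044816 (0.837). None are given for Tlr8, whose values were near background on most arrays. Myd88 was closest to Ripk1 (0.841), Sbno2 (0.822) and Tagln2 (0.807). Among the 45 pairs of members, r ran from -0.45 for Tlr1 with Tlr5 to 0.66 for Tlr2 with Myd88, and it was 0.65 for the neighbours Tlr1 and Tlr6.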

How the data were processed

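Per the file headers, Agilent Feature Extraction 10.5.1.1 (9.1 in the labels) made the deposited 1-colour intensities, background-corrected by the authors' software as gProcessedSignal. Of 40 arrays 38 have labels that do not contradict each other and were used. Outlier spots were dropped, spots of a probe averaged, and log2 values shifted by the 75th percentile of each array. A probe was well above background where at least 50% of its spots had that mark. It was tested where this held for at least 50% of arrays on 1 side of the comparison. The 40 value columns of the deposited fold change table were not used, only its gene symbols. The members and gene lists were chosen with earlier results of these data known.

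Comparisons used limma 3.58.1 in R 4.3.3 (lmFit and eBayes, two-sided) with p-values adjusted by Benjamini-Hochberg over all probes tested, and a probe was called at an adjusted p under 0.05. Diet comparisons had the time label as a block and time comparisons the diet. The labels pair the arrays by time. Deviations from the diet means correlated above 0.1 in 9 of 11 pairs of HFC with LFC, 6 of 6 of HF5 with HFC, 3 of 5 of HF20 with HFC and 3 of 5 of HF75 with HFC. Correlations with marker lists had 100000 permutations.

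Named genes are the 10 members by the probe with the highest mean level, the called genes of each pathway list with the largest differences (at most 3 in each direction, less those that passed the filter through 1 side or part of the weeks), the gene of each marker list with the highest mean level, and the 3 genes most correlated with each member among those that pass the same limit over 36 arrays (1 for Tlr3, 1 for Tlr6 and those of Tlr8 are not reported here). Alternatives were quantile normalization, normexp on the mean signal and local background (offset 50), dim values raised to the background limit, no filter, no block, the median over a gene's probes, pairs on 1 slide, and fits without single arrays or without the arrays that stand apart. Chosen after seeing the data were normexp without spots whose local background is above 200, pairs scanned on 1 day, scan day as a random block (limma's duplicateCorrelation, with consensus correlations of 0.163 to 0.272), counts of list genes that passed the filter on every side, and correlations within ranges of a list. Python 3.11.15, NumPy 2.4.6, pandas 2.3.3, SciPy 1.17.1 and matplotlib 3.10.9 were used.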

Additional observations from a re-analysis of the deposited data

Results flagged for a closer look

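Among the 5 or 6 arrays of the HF5, HF20 and HF75 diets, 1 array lay far from the others in 6 of the 42 sets of member and list levels examined, where chance alone gives about 1 in 20. The sets share the same arrays and are not independent, so the 6 are not a measure of excess over that rate. HF5 of week 9 and HF20 of week 3 each hold more than 1 of them. On HF5, Tlr2 was -0.54 at week 9 against 1.31 to 2.37 on the other arrays, and the adipocyte list was 4.94 there against -1.09 to 0.65. Tlr3 on HF5 was -7.15 at week 3 (not well above background) against -4.57 to -3.58. On HF20, week 3 had Tlr1 at -0.060 against -3.19 to -2.29, Myd88 at 2.13 against 1.36 to 1.55, and the B cell list at 0.93 against -4.34 to -3.23. None of these distances was tested further.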

How the results depend on the processing

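The values below are those that moved, and the cause was not tested. With scan day as a random block, weeks 3 to 15 gave 0 members (4 reported) and 604 probes (5574), week 3 gave 1 member (3) and 1350 probes (7686), week 9 gave 0 probes (387), and late minus early gave 0 probes (1). Normexp correction gave 8 members and 20017 probes at weeks 3 to 15, 5 members and 17931 probes at week 3 (80.1% higher), 8 probes at week 9 and 0 between late and early. It moved the median of all probes to -0.30 in HF5 (-0.00 reported), -0.40 in HF20 (0.08) and -0.24 in HF75 minus HFC (96.7% of calls higher, 80.8% reported) and to 0.68 at week 3. It is upset by a few spots of bright local background. Without these spots the medians were 0.20 in HF75 minus HFC and 0.39 at week 3, and it gave 839 probes at week 9 and 0 between late and early. Under it Tlr5 over all 36 arrays, a relation not given above, reversed against the neutrophil and monocyte list (r = 0.171 from -0.445) and the B cell list (r = 0.461 from -0.423). Quantile normalization gave 1 member in HF75 minus HFC (0 reported) and 0 probes between late and early. Dim values raised gave 1 member in HF75 minus HFC too, in both Tlr5, which passed the filter through HFC only, so these counts are no support. It gave 1 member at weeks 3 to 15, 1 probe at week 9 and 0 between late and early. No filter gave 0 members at weeks 3 to 15, 1 probe at week 9 and 0 between late and early.

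With no block for the pairing, HF75 minus HFC gave 0 probes (292 reported), weeks 3 to 15 gave 2 members and week 9 gave 31 probes. Tlr7 also lost its call at week 3 without it, under quantile normalization and with no filter. Pairs scanned on 1 day gave 0 probes in HF75 minus HFC. Without the arrays that stand apart, weeks 3 to 15 gave 2 members, week 3 gave 4346 probes, week 9 gave 1 member and 1613 probes, and late minus early gave 10 probes. Without the HF75 array of week 9, that week gave 1790 probes. Correlations over all 36 arrays gave 17 of 40, and 7 without the arrays of week 9.

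Leaving out 1 array or pair at a time gave 0 to 182 probes in HF75 minus HFC, 0 to 4 members and 3117 to 7855 probes at weeks 3 to 15, 2 to 2 members and 4346 to 8811 probes at week 3, 0 to 1790 probes at week 9, 0 to 4 probes between late and early, and 0 to 0 members or probes in the rest of these fits. For the comparisons of week 3 and week 9, only arrays of the named week were left out in these fits. Without LFC of week 3, the week 9 comparison gave 1 member (Tlr2). Of the other values, 1455 kept their side of the threshold or moved by less than the spread between arrays, 121 were weaker, 21 stronger and 16 moved. Tlr8 was near background on 35 of 38 arrays, and the Tlr5 values on HF75 are at background, so no exact fold is given.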

Other observations

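Both arrays whose labels for week 18 contradict each other (HF20 or HF75) belong to no comparison above. On 1 of them Myd88 was 2.50, Tlr2 1.05, Tlr9 1.13, Tlr4 -0.41, Tlr7 -2.17, Tlr6 -2.68, Tlr1 -3.33, Tlr3 -4.18 and Tlr5 -4.52, each well above background. On the other array 21710 of 43803 spots were outliers and 21089 probes had a value. Myd88 at -0.35, Tlr9 at -1.37, Tlr4 at -2.10 and Tlr5 at -4.66 were well above background there, and Tlr1, Tlr2, Tlr6, Tlr7, Tlr8 and the main probe of Tlr3 had no value.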
